A study of Homo sapiens with 4 samples.

Results

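The genes described here are the numbered zinc finger genes of human chromosome 19. Members are protein-coding genes of RefSeq on chromosome 19 whose symbol is ZNF and a number alone, and whose read counts summed to at least 100 over the 4 libraries. The rule found 206 genes among the 46660 gene identifiers of the count table. RefSeq lists 240 such genes on chromosome 19, of which 235 were in the table and 29 were under the minimum. Members were chosen by their summed counts, which are given as a description only. Just inside the minimum were *ZNF575* with 114 counts, *ZNF69* with 124 and *ZNF844* with 137. Just outside were *ZNF442* with 97 counts, *ZNF677* with 89 and *ZNF433* with 70.

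Zinc finger proteins of this kind bind DNA through tandem C2H2 fingers, each of which contacts a few bases. Most of those encoded on chromosome 19 also carry a KRAB domain, which recruits the corepressor TRIM28 and, through it, the histone methyltransferase SETDB1 and heterochromatin proteins. The family arose by repeated tandem duplication, and many of its proteins silence transposable elements. *FLI1* encodes a transcription factor of the ETS family, whose DNA binding domain recognises sites around a GGAA core.

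The libraries were RNA-seq libraries of U87MG and U251MG, which are established human glioblastoma cell lines, each sampled once as control and once as shFLI1 cells. All 4 came from lentivirus-infected cells selected with puromycin and kept as mixed populations. The shFLI1 cells carried shRNA against *FLI1*, for which the study describes 2 target sites, while the control is given as the empty vector pGreen in the treatment labels and as shControl in the sample titles. The study compared them to find genes that depend on *FLI1*. Counts per library ranged from 12229780 in U87MG control to 28891055 in U251MG shFLI1, and shFLI1 cells were sequenced more deeply than controls in either line. Because each arm is 1 library, no spread between replicates could be had inside a cell line, and the 95% Clopper-Pearson intervals given with log2 fold changes cover counting error only. *FLI1* itself had 107 counts in U87MG control, 52 in U87MG shFLI1, 216 in U251MG control and 111 in U251MG shFLI1, so that on the log2 scale the 2 shFLI1 libraries stood at -1.95 and -1.68 relative to their controls. Of the 6 glial and mesenchymal glioma markers listed, *VIM* and *CD44* were abundant in every library, with at least 18281 counts each. In the same order of libraries, *NES* had 2281, 6293, 7013 and 19080 counts and *SOX2* 1337, 3504, 2497 and 5217. *S100B* was nearly absent, at 1, 7, 6 and 11 counts, and *GFAP* had 7264, 35305, 364 and 2808. *GFAP*, an astrocyte intermediate filament, was called higher in shFLI1 cells of both cell lines, at log2 fold changes of 1.32 and 2.19. Of the markers of other cell types, the leukocyte list was led by *CD68*, a lysosomal protein, with 47, 12, 163 and 14 counts in the same order of libraries, while *PTPRC*, the pan-leukocyte marker, had 0, 0, 1 and 5 counts. *CD68* was called lower in shFLI1 cells of both cell lines, at log2 fold changes of -2.72 (U87MG) and -4.03 (U251MG). Summed over each list, neuron markers took 12.4 to 30.0 CPM (TMM-scaled counts), endothelial markers 0.841 to 5.68, leukocyte markers 0.540 to 9.20, oligodendrocyte markers 0.349 to 0.768 and the epithelial marker *CDH1* at most 0.0450. The part of *GFAP* and *CD68* in the results on zinc finger genes was not tested.

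The promoters of these genes are shown first, since *FLI1* is an ETS factor and the windows of neighbouring members resemble each other. RefSeq promoter windows, from 250 bases before to 50 bases after an annotated start on GRCh38.p14, were matched for 185 of the 206 members. That start can lie inside the gene, as in *ZNF730* on the plus strand, which begins at 23075211 and whose window begins at 23116775. The ETS core motif CCGGAAG was searched on both strands and was present in 87 of these windows, or 47.0%. It was present in 20.1% of the 10002 windows of protein-coding genes with at least 100 summed counts, in 39.6% of 169 windows of ZNF genes on other chromosomes, in 19.5% of 560 windows of other chromosome 19 genes and in 10.7% of all 27305 windows of the table. The 87 members held 99 matches, whose first base lay at a median of -18 relative to the start (quartiles -45.5 and 2). A match describes the letters of the window and is not a measured binding site.

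In the group of 7 members from *ZNF730* to *ZNF254*, all 7 windows held 1 match each, all on the strand opposite to the gene. This group also had the highest median fold change in U87MG among the groups of at least 5 members described below. On the log2 scale its median was 0.38 in U87MG and -0.009 in U251MG, and a link between motif and fold change was not tested. The share of windows with a match was not compared across all groups. The 7 windows are shown as 57 bases in the direction of the gene, with the motif, read as CTTCCGG on this strand, in capitals, to show how far the sequence around it is shared.
ZNF730, plus strand, chr19:23116982-23117038: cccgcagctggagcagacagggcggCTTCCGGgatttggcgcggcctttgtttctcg
ZNF724, minus strand, chr19:23250381-23250437: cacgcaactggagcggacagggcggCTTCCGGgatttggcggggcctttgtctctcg
ZNF91, minus strand, chr19:23395464-23395520: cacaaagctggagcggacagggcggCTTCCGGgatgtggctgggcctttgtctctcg
ZNF675, minus strand, chr19:23687170-23687226: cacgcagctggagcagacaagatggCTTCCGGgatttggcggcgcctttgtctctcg
ZNF681, minus strand, chr19:23758883-23758939: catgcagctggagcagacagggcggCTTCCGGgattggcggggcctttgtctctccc
ZNF726, plus strand, chr19:23914837-23914893: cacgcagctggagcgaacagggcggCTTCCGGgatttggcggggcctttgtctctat
ZNF254, plus strand, chr19:24087144-24087200: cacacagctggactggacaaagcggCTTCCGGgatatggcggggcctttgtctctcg
Without gaps, pairs of these windows were 63.2% to 93.0% identical, with a median of 86.0% over 21 pairs, and 26 of the 57 positions had the same base in all 7. The 7 are paralogs, so their matches are not independent of each other.

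The whole window of *ZNF91*, the member of this group with the most counts after *ZNF254* and a known repressor of SVA retrotransposons, is given for context. It spans chr19:23395422-23395721 on the minus strand and holds 11 CpG dinucleotides, against a median of 21 over the members' windows and 26 over those of protein-coding genes with at least 100 counts.
ZNF91: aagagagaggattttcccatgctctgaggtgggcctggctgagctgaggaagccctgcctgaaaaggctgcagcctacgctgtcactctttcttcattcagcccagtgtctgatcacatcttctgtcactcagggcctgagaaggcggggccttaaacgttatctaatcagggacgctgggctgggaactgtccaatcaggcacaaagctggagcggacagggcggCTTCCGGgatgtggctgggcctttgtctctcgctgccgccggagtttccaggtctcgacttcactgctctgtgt

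**Figure D1:**
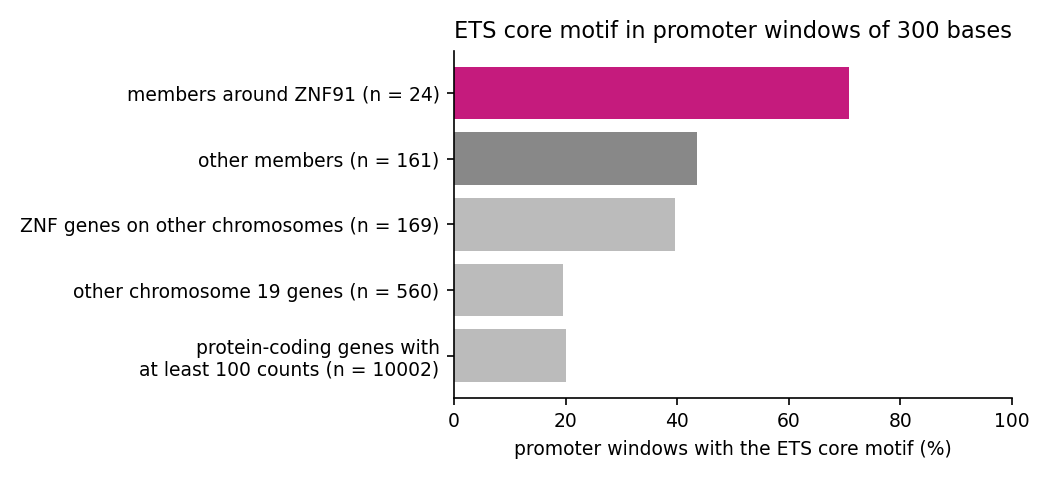
Share of RefSeq promoter windows that hold the ETS core motif on either strand (x axis, %), by gene set (bars, with the number of windows). The bar of the members around *ZNF91* reaches 70.8% and that of the other members 43.5%, above the 20.1% of protein-coding genes with at least 100 counts.

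Fold changes of shFLI1 over control were close to 0 in members with and without the motif. On the log2 scale their median was 0.04 (U87MG) and -0.02 (U251MG) over the 87 members with the motif, and 0.08 and -0.07 over the 98 members without it. This difference was not tested, since each cell line has 1 library per arm.

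Expression of the family was low and spread over many genes. Together they took 0.272% of the counts in U87MG control, 0.324% in U87MG shFLI1, 0.362% in U251MG control and 0.370% in U251MG shFLI1. The median member had 95 counts in U87MG control, 215.5 in U87MG shFLI1, 222.5 in U251MG control and 351.5 in U251MG shFLI1, and no member was at 0 in any library. The U87MG control library was therefore the one that limited precision, with 2 members under 10 counts there and 0 in each of the other libraries. On the length-corrected scale of the authors, FPKM summed over the RNAs of a gene, the mean over the 4 libraries had a median of 3.91 over members (quartiles 2.24 and 6.80).

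The 3 highest FPKM levels belonged to members without a KRAB match. By a sequence pattern for the KRAB A box, 148 of the 206 canonical proteins matched, and their median FPKM was 3.42 against 5.40 for the 58 others. The pattern matched 1 of the 20 members from *ZNF575* to *ZNF180*, and the 58 can include KRAB genes that it missed. A looser pattern, which also allows leucine at the last position and was chosen after the values were seen, matched 163. Their median FPKM was 3.355, against 7.48 for the other 43. *ZNF428*, a small protein with 1 finger by the C2H2 pattern, was the highest, at 75.9 FPKM in U87MG control, 88.2 in U87MG shFLI1, 54.0 in U251MG control and 67.8 in U251MG shFLI1. Its levels in both U251MG libraries were below those in both U87MG libraries. *ZNF580* followed at 46.8, 38.6, 51.2 and 46.4 FPKM in the same order, and its neighbour *ZNF581* was at 30.1, 24.3, 23.6 and 20.1. In each cell line both were lower in the shFLI1 library, and on the count scale their intervals lay below 0, at log2 fold changes of -0.39 and -0.23 for *ZNF580* and -0.46 and -0.32 for *ZNF581* in U87MG and U251MG. *ZNF358*, which also lacks a KRAB match, was at 33.5, 24.3, 43.8 and 40.3 FPKM. The KRAB genes *ZNF544*, *ZNF460*, *ZNF584*, *ZNF561* and *ZNF254* and the finger-only gene *ZNF146* completed the 10 highest, among which the lowest mean FPKM was the 24.5 of *ZNF581*. *ZNF146*, known for overexpression in carcinomas, was at 23.7, 34.8, 31.1 and 31.5 FPKM, so its U87MG control library was the lowest and its other 3 libraries lay close together.

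**Figure D2:**
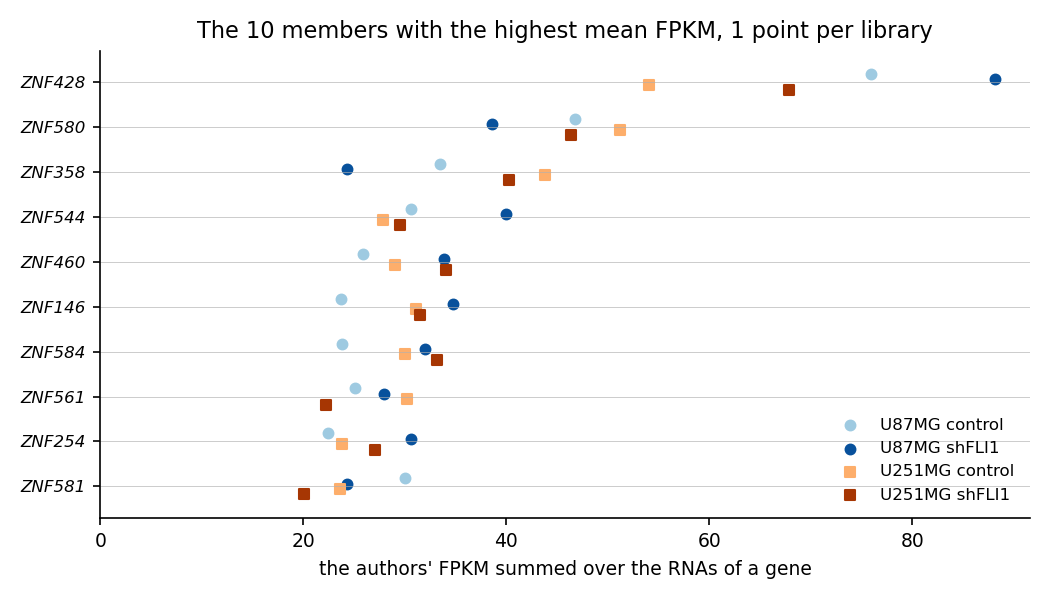
The authors' FPKM summed over the RNAs of a gene (x axis) for the 10 members with the highest mean FPKM, with 1 point per library (circles U87MG, squares U251MG, dark points shFLI1). *ZNF428* lies between 54.0 and 88.2, and the other 9 genes between 20.1 and 51.2.

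After *FLI1* knockdown nearly all members stayed within 2-fold of their control level. Calls needed a change over 2-fold between shFLI1 and control, at least 10 counts in 1 library and P below 0.05 in an exact binomial test of the reads (two-sided), which sets 1 library against another rather than conditions. In U87MG 3 of 206 members were called, 1 higher and 2 lower in shFLI1 cells, or 1.46%, against 7.56% of the genes tested with at least 100 summed counts. Over all genes tested in U87MG, 7.48% were called higher and 4.33% lower. In U251MG 0 of 206 members were called, against 4.36% of the genes tested with at least 100 summed counts, and over all genes tested 4.44% were called higher and 4.06% lower. Over 201 ZNF genes on other chromosomes, 8 were called in U87MG and 1 in U251MG, and over 657 other protein-coding genes of chromosome 19, 27 and 18.

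The sizes of the fold changes were small in both directions. The members had a median of 0.07 on the log2 scale in U87MG, where 117 were higher and 89 lower, and -0.05 in U251MG, where 84 were higher and 122 lower. Over all genes tested it was 0.06 and 0.04, and over the 14024 genes with at least 100 counts 0.016 and 0.015. Within 1.5-fold of the control were 179 members in U87MG (86.9%) and 201 in U251MG (97.6%), against 79.6% and 85.9% of all genes with at least 100 counts. The shares were 86.1% and 94.5% over ZNF genes on other chromosomes, and 87.4% and 90.6% over other chromosome 19 genes. The medians of the ZNF genes on other chromosomes were 0.06 and -0.04, close to those of the members. Member fold changes ran from -1.29 to 1.47 on the log2 scale in U87MG and from -0.76 to 0.80 in U251MG. Total counts in place of TMM scaling raised the median of all genes tested in U87MG by over 0.1 to 0.22, and that of the members to 0.23, with 151 higher and 55 lower. In U251MG that scaling turned the median of the members to 0.03, with 113 higher and 93 lower.

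**Figure D3:**
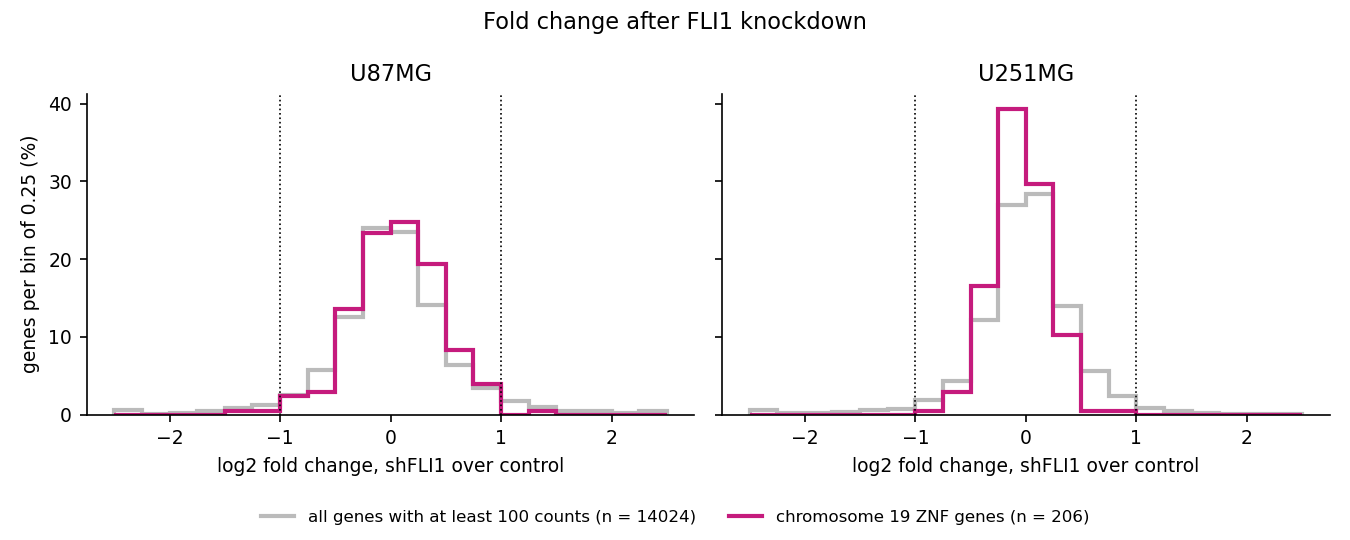
Share of genes (y axis, % per bin of 0.25) by log2 fold change of shFLI1 over control (x axis) in U87MG and U251MG, for the 206 chromosome 19 ZNF genes and all 14024 genes with at least 100 counts. Dotted lines mark 2-fold, values beyond the axis are placed in the outermost bins, and the members fall almost wholly between the dotted lines.

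The members called in U87MG all had few reads. *ZNF90*, on chromosome 19 with 15 fingers and a KRAB match, had 3 counts in U87MG control, 20 in U87MG shFLI1, 45 in U251MG control and 75 in U251MG shFLI1. Its U87MG control library was thus at the limit of detection, and its ratio had an interval from 0.03 to 4.17 around the fitted log2 fold change of 1.47 (exact binomial P = 0.0449). *ZNF844* had 28, 21, 37 and 51 counts in the same order, and its log2 fold changes were -1.29 in U87MG (interval -2.26 to -0.50, exact binomial P = 0.00125) and -0.27 in U251MG (-0.92 to 0.37). *ZNF625* had 21, 18, 103 and 159 counts, a log2 fold change of -1.09 in U87MG (-2.17 to -0.20, exact binomial P = 0.0110) and of -0.12 in U251MG (-0.49 to 0.25). *ZNF625* shares exons with the read-through gene *ZNF625-ZNF20*, which had 4, 7, 20 and 24 counts, so reads could be split between the 2 identifiers. With a minimum of 100 counts in 1 library, none of the 160 members still tested was called in U87MG.

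Differences under 2-fold were resolved for the better-counted members. The counting interval lay wholly above 0 for 50 members and wholly below 0 for 25 in U87MG, where the shares over all genes with at least 100 counts were 28.1% and 27.0%. In U251MG it lay wholly above 0 for 28 members and wholly below for 43, against 28.1% and 27.2%. Both intervals lay above 0 for 12 members and below 0 for 13, where 13.4% and 13.9% of all genes did so. They lay on opposite sides of 0 for 11 members, against 8.23% of all genes. Intervals are wide where counts are few.

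To ask for an effect common to both lines, all 4 libraries entered edgeR's quasi-likelihood test, blocked by cell line, with 1 residual degree of freedom. At an adjusted P below 0.05 it passed 0 of 206 members, against 3.06% of all genes tested, and 11 members (5.34%) had an unadjusted P below 0.05, against 16.5% of all genes tested. DESeq2 with the same design passed 0 members, against 2.43% of all genes tested, with 1 member at an unadjusted P below 0.05, against 8.46%. The member with the lowest adjusted P was *ZNF526* (edgeR adjusted P = 0.0850), whose log2 fold changes were -0.50 (U87MG) and -0.62 (U251MG). Across the 206 members, which are not independent replicates, the fold changes of the cell lines had a Pearson r of 0.30, against 0.47 across all genes with at least 100 counts.

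Members are spread along chromosome 19 in 16 groups separated by gaps of over 1 Mb, and 9 groups hold at least 5 members. Among these 9 groups, the highest U87MG medians were in neighbouring groups on either side of a gap, 0.38 over the 7 members from *ZNF730* to *ZNF254* and 0.36 over the 20 members from *ZNF101* to *ZNF43*. The lowest of the 9 was -0.07 over the 5 members from *ZNF302* to *ZNF792*. In U251MG the highest median of the 9 was 0.16, in the group of *ZNF302*, and the lowest was -0.10, over the 14 members from *ZNF557* to *ZNF846*.

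The 2 groups with the highest medians together span 19668153 to 24129968 of GRCh38 and hold 27 members, 26 of them with a KRAB match. They were joined after their values were seen. In U87MG 23 of the 27 were higher in shFLI1 cells, with 0.38 as their median, and the counting interval lay wholly above 0 for 11 and wholly below 0 for 0 of them. Over the 179 other members the median was 0.04, with 39 intervals above 0 and 25 below. In U251MG the 27 had a median of -0.03, with 9 higher, 3 intervals above 0 and 6 below, and the 179 others a median of -0.05. Of all genes with at least 100 counts, 28.1% had intervals above 0 and 27.0% below in U87MG, and 28.1% and 27.2% in U251MG. Added up over the 27, the counts were 2236 in U87MG control, 5771 in U87MG shFLI1, 5680 in U251MG control and 9261 in U251MG shFLI1, or 0.41 (U87MG) and -0.04 (U251MG) as pooled log2 fold changes.

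*ZNF91* had the highest lower bound among them in U87MG, with 278 counts in U87MG control, 908 in U87MG shFLI1, 770 in U251MG control and 1363 in U251MG shFLI1. As CPM these were 24.3, 40.8, 43.2 and 45.5, so the U87MG control library stood below the other 3. Its log2 fold change was 0.75 in U87MG (interval 0.55 to 0.95) and 0.08 in U251MG (-0.05 to 0.20). *ZNF254* had 398, 1111, 749 and 1489 counts, at log2 fold changes of 0.52 (0.36 to 0.69) and 0.24 (0.12 to 0.37). *ZNF93*, a repressor of L1 retrotransposons, had 38, 74, 174 and 204 counts, at 0.00 (-0.58 to 0.61) in U87MG and -0.51 (-0.82 to -0.22) in U251MG. *ZNF724* had 127, 315, 378 and 444 counts, at 0.35 (0.05 to 0.66) and -0.51 (-0.72 to -0.31), so its intervals lay on opposite sides of 0. *ZNF724* and *ZNF675*, at 0.38 and -0.27, share this opposite pattern with *ZNF714*.

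Sequence and depth moved with this pattern. Transcripts of the 27 had a median GC content of 41.8%, against 46.0% for the other members, and a median of 6.58% of the 50-base stretches of their coding sequences recurred in another gene of the family, against 0 for the others, so reads of these paralogs can be split between them. They had a median of 58 counts in U87MG control, against 110 for the others. When the trend with GC content and length was taken out, the U87MG median was 0.25 over the 27 and -0.03 over the others. The difference between the groups was not tested, and neither was the part of GC content, read sharing or depth in it.

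**Figure D4:**
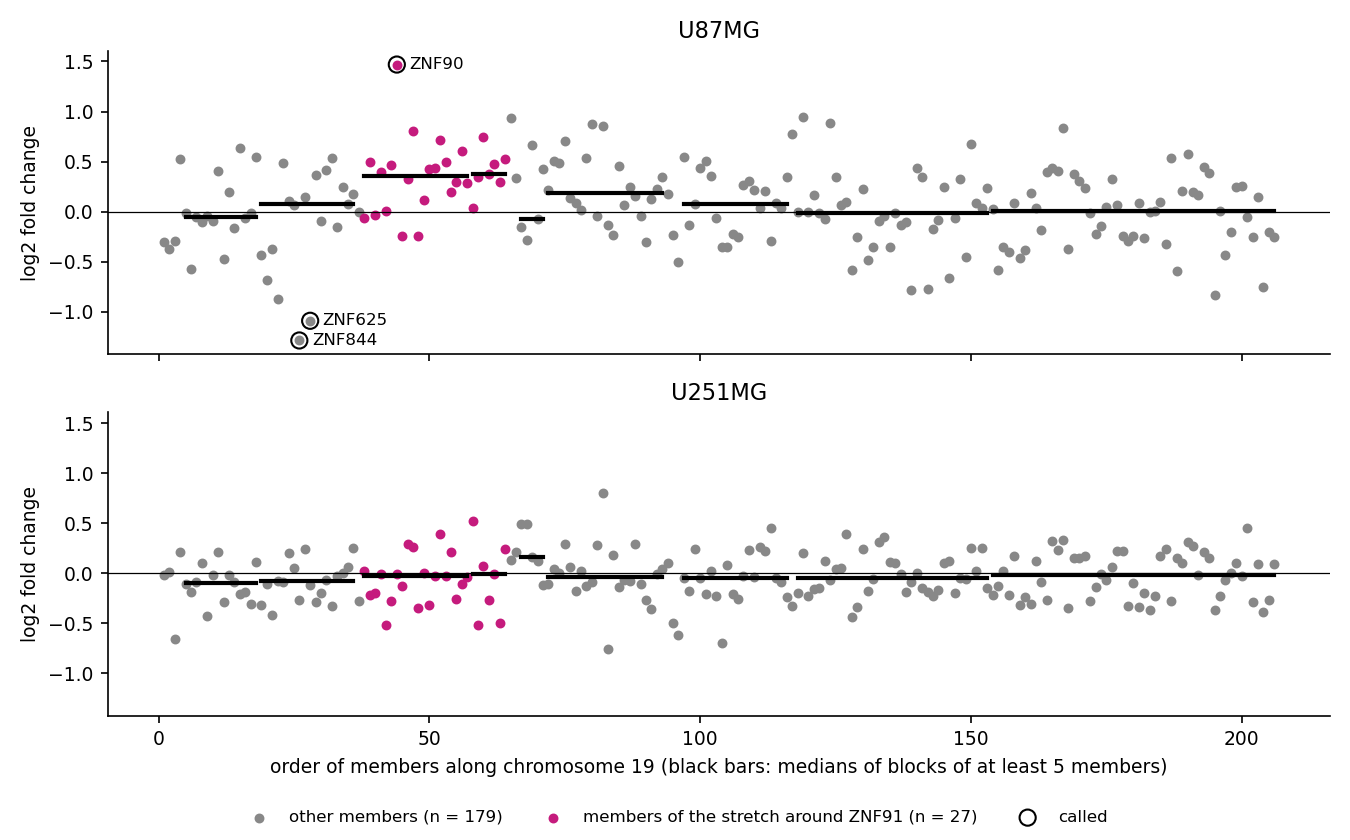
Log2 fold change of shFLI1 over control (y axis) for the 206 members in their order along chromosome 19 (x axis, rank), in U87MG above and U251MG below, with coloured points for the 27 members around *ZNF91*, black bars for medians of groups of at least 5 members and open circles for called members. In U87MG the bars of the coloured points stand at 0.36 and 0.38, and in U251MG all bars lie between -0.10 and 0.16.

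Among the other groups, the 5 members from *ZNF302* to *ZNF792* had medians of -0.07 in U87MG and 0.16 in U251MG. Of their U87MG intervals, 0 lay wholly above 0 and 0 wholly below. *ZNF302* had 124 counts in U87MG control, 217 in U87MG shFLI1, 252 in U251MG control and 596 in U251MG shFLI1, at log2 fold changes of -0.15 and 0.49. *ZNF181*, its neighbour, had 109, 173, 152 and 360 counts, at -0.29 and 0.49. In both genes the U251MG shFLI1 library was the highest in scaled counts, and the other 3 members of the group, *ZNF599*, *ZNF30* and *ZNF792*, had U251MG intervals that included 0. In U87MG these 3 were at 0.66, -0.07 and 0.42, in that order. In the group from *ZNF557* to *ZNF846*, 5 of 14 members had U251MG intervals below 0, led by *ZNF317* at -0.43 (-0.55 to -0.31) and *ZNF562* at -0.31 (-0.40 to -0.21), and 0 had one above 0. Over all genes with at least 100 counts, 27.2% of U251MG intervals lay below 0 and 28.1% above.

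The larger groups of the long arm held members on both sides of 0, and those named in the next sentences were chosen after their values were seen. In the 22 members from *ZNF565* to *ZNF573* the U87MG median was 0.19, with 7 intervals above 0 and 0 below, and the U251MG median was -0.04. Over all genes with at least 100 counts, 28.1% of U87MG intervals lay above 0 and 27.0% below. The group from *ZNF565* to *ZNF573* held both extremes of U251MG, *ZNF345* with 31 counts in control and 93 in shFLI1 (log2 fold change 0.80, interval 0.24 to 1.47) and *ZNF829* with 107 and 105 (-0.76, -1.18 to -0.37). Neither passed 2-fold. *ZNF260*, in the same group, had 116 counts in U87MG control, 370 in U87MG shFLI1, 378 in U251MG control and 778 in U251MG shFLI1, at 0.71 (0.41 to 1.03) and 0.29 (0.11 to 0.47), so both intervals lay above 0.

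In the 36 members from *ZNF175* to *ZNF331*, with medians of -0.01 in U87MG and -0.05 in U251MG, *ZNF614* had 109, 394, 298 and 478 counts in the same order, at 0.89 (0.59 to 1.22) and -0.07 (-0.28 to 0.15). *ZNF320* had 191, 216, 541 and 797 counts, at -0.77 (-1.07 to -0.49) and -0.19 (-0.35 to -0.03), so 2 genes of this group lay far apart in U87MG. *ZNF331*, an imprinted gene, had 119, 272, 295 and 448 counts, at 0.23 (-0.08 to 0.56) and -0.14 (-0.36 to 0.07), and *ZNF350*, a partner of BRCA1, had 69, 133, 112 and 170, at -0.01 (-0.44 to 0.43) and -0.14 (-0.50 to 0.21). The intervals of both included 0 in each cell line. In the 53 members from *ZNF628* to *ZNF446* near the end of the chromosome, with medians of 0.01 and -0.02, 15 intervals lay above 0 and 12 below in U87MG, and 12 above and 15 below in U251MG. The shares over all genes with at least 100 counts were 28.1% and 27.0% in U87MG, and 28.1% and 27.2% in U251MG. *ZNF526* and *ZNF574*, which lie together outside these groups and lack a KRAB match, were lower in the shFLI1 library of each cell line. *ZNF526* had 435, 597, 674 and 738 counts, with intervals from -0.68 to -0.32 and from -0.77 to -0.46, and *ZNF574* had 494, 817, 806 and 956, with intervals from -0.40 to -0.07 and from -0.64 to -0.37. Neither passed the shared test.

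More members differed between the cell lines than between the conditions. The same held over all 16649 genes tested, of which 3100 differed between the cell lines and 509 passed the shared test. In the same edgeR fit, which takes the control and shFLI1 libraries as replicates of a cell line, 31 of 206 members passed an adjusted P of 0.05, 30 of them higher in U251MG and 1 lower. Over all genes tested 10.4% were higher and 8.25% lower in U251MG, and over those with at least 100 counts 11.6% and 9.1%, compared with 14.6% of members higher and 0.485% lower. Of 201 ZNF genes on other chromosomes 29 were higher and 10 lower, and of 657 other chromosome 19 genes 47 and 55. The median log2 difference, U251MG over U87MG, was 0.26 over members, 0.12 over the other ZNF genes, -0.11 over the other chromosome 19 genes and 0.01 over all genes with at least 100 counts. In both conditions 144 members (69.9%) were higher in U251MG and 14 (6.80%) were lower, against 44.9% and 29.6% of all genes with at least 100 counts. The differences in control and in shFLI1 cells had a Pearson r of 0.74 across members and 0.77 across all those genes. DESeq2 with the same design passed 12 members (5.83%), all higher in U251MG, against 10.9% of all genes tested. Among the 102 members with at least 100 counts in every library, edgeR passed 10 higher and 1 lower (10.8%), against 21.9% of all such genes. In either direction the main fit passed 31 of 206 members, against 3100 of 16649 genes tested. By the main fit and by both of these alternatives, the share of members that differed in either direction was thus below that of all genes.

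*ZNF415*, which had no match to the KRAB pattern, showed the largest difference. It had 1.83 CPM in U87MG control, 1.12 in U87MG shFLI1, 7.97 in U251MG control and 8.65 in U251MG shFLI1, a log2 difference of 2.48 between the cell lines (edgeR adjusted P = 0.00157). *ZNF536*, a regulator of neuronal differentiation that lies alone on the chromosome among the members, was at 3.06, 5.93, 23.8 and 26.2 CPM, a difference of 2.42 (edgeR adjusted P = 0.000341). *ZNF418* was at 1.83, 0.989, 7.85 and 6.08, a difference of 2.29 (edgeR adjusted P = 0.00212). In each of these 3 genes both U251MG libraries lay above both U87MG libraries. *ZNF536* also had a U87MG fold change near the 2-fold line, with 35 counts in control and 132 in shFLI1 (0.94, interval 0.41 to 1.54), against 425 and 785 in U251MG (0.14, -0.04 to 0.31).

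*ZNF625*, named above for its U87MG fold change, was at 1.83, 0.809, 5.78 and 5.31 CPM, a difference of 2.11 (edgeR adjusted P = 0.00687). *ZNF90* was at 0.262, 0.899, 2.52 and 2.50, a difference of 2.0 (edgeR adjusted P = 0.0314), and its value rests on 3 counts in U87MG control. Members were admitted on counts summed over both cell lines, so a gene with few U87MG reads could enter through its U251MG reads. In U87MG control and shFLI1, *ZNF415* had 21 and 25 counts, *ZNF625* 21 and 18, and *ZNF90* 3 and 20. These genes met the minimum only with their U251MG counts, so their differences are not independent of the rule for members. The U87MG CPM of *ZNF418* given above were similarly low. *ZNF428*, the member with the highest FPKM, was the 1 member lower in U251MG, at 72.9, 76.9, 49.2 and 58.3 CPM and a difference of -0.55 (edgeR adjusted P = 0.0270). After scaling to total counts it no longer passed, since 36 members were then higher and 0 lower.

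The members that were higher in U251MG were found in most groups along the chromosome, and 11 of the 30 lay among the 36 members from *ZNF175* to *ZNF331*, of which 33 had a positive difference and the median was 0.46. All 9 groups of at least 5 members had a median above 0. Of the 30, 22 were among the 148 members with a KRAB match and 8 among the 58 without, so their KRAB share was close to that of all members. The median difference was 0.34 over the 148 and 0.08 over the 58. Of the 25 with a promoter window, 10 held the ETS core motif, or 40.0%, against 47.0% of the windows of all members.

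**Figure D5:**
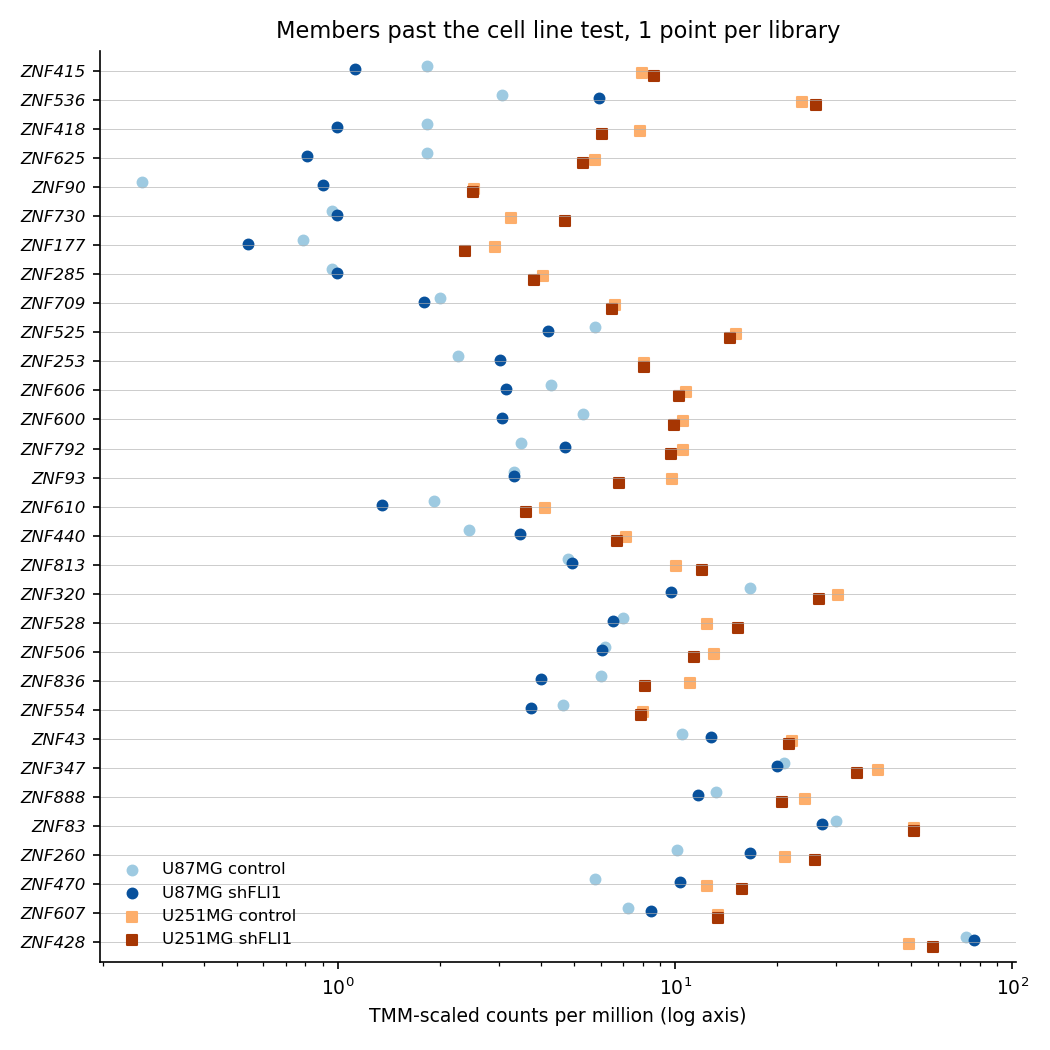
TMM-scaled CPM (x axis, log scale) of the 31 members that passed the cell line test (y axis), with 1 point per library (circles U87MG, squares U251MG, dark points shFLI1). In the top 30 genes both U251MG libraries lie to the right of both U87MG libraries, and in *ZNF428*, at the bottom, to the left.

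*TRIM28*, the corepressor that KRAB domains bind, had 7432 counts in U87MG control, 14066 in U87MG shFLI1, 10116 in U251MG control and 17429 in U251MG shFLI1, at log2 fold changes of -0.04 and 0.04. *SETDB1*, the methyltransferase it recruits, had 345, 727, 536 and 995 counts, at 0.12 and 0.14. Over the list of 22 corepressor and heterochromatin genes, all in the table, the median was 0.01 in U87MG and 0.04 in U251MG, with 0 called in U87MG, where 7.56% of genes with at least 100 counts were called, and 1 in U251MG, where 4.36% were. In the shared test 1 passed, or 4.55%, against 3.06% of all genes tested, which is near the background. The gene that passed was *ATRX*, a chromatin remodeller that acts with DAXX at heterochromatin, which rose. It had 794, 2638, 1297 and 4628 counts, at log2 fold changes of 0.77 and 1.09 (edgeR adjusted P = 0.0153 in the shared test), so the shFLI1 library was the higher in each cell line. *DAXX*, its partner, had 765, 1264, 1009 and 1491 counts, at -0.23 and -0.19, and did not pass.

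Among the features that the rule did not use, the number of fingers had a median of 12 and ran from 1 in *ZNF428* to 31. The 112 members with at least 12 fingers had medians of 0.19 (U87MG) and -0.03 (U251MG) on the log2 scale, and the 94 with fewer had -0.02 and -0.07. Members with a KRAB match had medians of 0.09 and -0.05, and those without 0.02 and -0.04. The looser pattern that also allows leucine at the last position of the box, chosen after the values were seen, matched 163 members and gave 0.08 and -0.05 against 0.01 and -0.04. Further, 6 read-through genes and 14 antisense genes in the count table carry the name of a member, and the strandedness of the counting is not given in the sources used here, so reads of such pairs cannot be told apart.

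*ZNF473*, a component of the histone pre-mRNA processing machinery, showed the widest split between the cell lines among the 11 members whose intervals lay on opposite sides of 0, and was chosen after its values were seen. It had 224 counts in U87MG control, 745 in U87MG shFLI1, 375 in U251MG control and 502 in U251MG shFLI1. Its log2 fold change was 0.77 in U87MG (interval 0.56 to 1.00) and -0.33 in U251MG (-0.52 to -0.13). *ZNF274*, which recruits SETDB1 to the 3′ ends of zinc finger genes and was also chosen after its values were seen, had 294, 495, 525 and 883 counts, at -0.21 (-0.42 to 0.01) and 0.00 (-0.16 to 0.16), so both intervals included 0.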

How the data were processed

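RNA-seq libraries of control and shFLI1 cells of U87MG and U251MG were analysed, 1 per arm, grouped from the sample labels. The authors aligned the reads to GRCh38 (GRCh38.p13 in the submitters' processing notes) with HISAT2 and computed FPKM with StringTie. Their deposited table holds 1 estimated count and 1 FPKM per RNA and library, and the counting tool is not given in the sources used here. A further 10 value columns (TPM, means) were not used.

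Here the counts of linear RNAs were summed over gene identifiers, rounded and scaled by TMM. Fold changes used a prior count of 2. Between 2 libraries, genes were called as stated in the text, by edgeR's binomial test, which uses a chi-square form at high counts. Across cell lines, edgeR's quasi-likelihood test with filterByExpr was used, with Benjamini-Hochberg adjustment over all genes tested. PCR reads are not independent molecules, and replicates in that fit are different cell lines or conditions.

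KRAB boxes and fingers were counted by patterns in translated GENCODE canonical coding sequences, and promoter windows came from RefSeq. The members and lists were chosen with earlier results of these data known. Named genes were the 10 highest by FPKM, members called or past a test (the 5 largest a direction for cell lines) and those beside the minimum. Members of the groups with the lowest and highest medians, and *TRIM28* and corepressor genes past a test, were named too. Exceptions are marked, apart from *ZNF93*, *ZNF714*, *SETDB1* and *DAXX*, which were also named outside these rules. The fits ran in edgeR 4.0.16 and DESeq2 1.42.0 under R 4.3.3, and the scripts were tested on simulated data. Alternatives covered scaling, filters, prior counts, thresholds, tests, thinning, GC content and FPKM.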

Additional observations from a re-analysis of the deposited data

Results flagged for a closer look

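The following members had counting intervals on opposite sides of 0 in the cell lines, with 1 library per arm, so that the difference between the cell lines was not tested. As the log2 fold change in U251MG minus that in U87MG, it was -1.10 for *ZNF473*, -0.86 for *ZNF724*, -0.85 for *ZNF121*, -0.81 for *ZNF551*, -0.74 for *ZNF714*, -0.71 for *ZNF45*, -0.64 for *ZNF675*, -0.58 for *ZNF180* and -0.49 for *ZNF787*, which were higher in shFLI1 cells of U87MG and lower in those of U251MG. It was 0.46 for *ZNF772* and 0.56 for *ZNF211*, which had the reverse pattern. These are 11 of 206 members, against 8.23% of all genes with at least 100 counts.

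Over the 27 members around *ZNF91* the median was 0.38 in U87MG and -0.03 in U251MG, a difference of -0.40, also not tested. With total counts the U251MG median turned to 0.05, so both medians were then above 0.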

How the results depend on the processing

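No library could be left out, since each group holds 1, and the labels give no replicate numbers to pair by; the tests over 4 libraries pair control and shFLI1 cells through the cell line block. The count of 3 members called in U87MG became 7 with total counts (6 higher, 1 lower), 24 with a 1.5-fold threshold (15 higher, 9 lower), 1 with an assumed coefficient of variation of 0.2 and 0 with at least 100 counts in 1 library, and stayed within 1.5 times under 5 other settings. In U251MG the count of 0 became 5 with a 1.5-fold threshold (1 higher, 4 lower) and stayed at 0 under the other 8. The U87MG median of 0.0697 was 0.0382 with DESeq2 size factors, 0.229 with total counts, 0.0215 with the shFLI1 library thinned to its control, 0.196 and 0.154 with FPKM at pseudocounts of 0.1 and 1, and 0.0247 with the GC content and length trend removed. The U251MG median of -0.046 was -0.0611 with size factors, -0.0628 with the GC trend removed and -0.0305 with a minimum of 10 summed counts, and turned to 0.0262 with total counts and to 0.0148 and 0.0102 with FPKM. The shared test passed 1 member (lower) with at least 1 count in any library and 0 under the other settings. The cell line test passed 31 members, 12 with DESeq2, 11 with at least 100 counts in every library and 4 with no block for the condition, and 35 to 44 with other scalings or at least 1 count in any library. The median of the 27 members around *ZNF91* in U87MG stayed between 0.25 (GC trend removed) and 0.53 (total counts), and in U251MG it was -0.03, -0.04 with size factors, -0.08 with the GC trend removed, -0.12 with FPKM and 0.05 with total counts, under settings added after the data were seen. The causes were not tested. Depth limits the members most in U87MG control, at a median of 95 counts.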
